A study of Mus musculus with 7 samples.

Results

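The genes described here encode the vascular endothelial growth factor (VEGF) family, and were taken by symbol from the expression table. They are 9 of 49382 genes, namely 5 ligands (Vegfa, Vegfb, Vegfc, Vegfd and Pgf), 2 receptor tyrosine kinases (Flt1 and Kdr) and 2 coreceptors, the neuropilins (Nrp1 and Nrp2). Each symbol stood on 1 row. RNA-seq was performed on wild type mouse embryonic fibroblasts (MEFs), primary cells grown from embryos of days 13.5 to 14.4 after removal of the head and fetal liver, and used at passages 3 to 7. The libraries were 1 of untreated control cells and 1 of each of 6 conditions: oxidative stress (10 μM sodium arsenite, 3 hours), osmotic stress (100 mM NaCl added, 3 hours), ER stress (1 μM thapsigargin, 10 hours), glucose depletion (10 hours), glutamine depletion (10 hours) and hypoxia (0.1% oxygen, 10 hours). The labels give no duration for the control and do not say how many embryos or preparations the libraries came from. The study's methods describe MEFs sorted to remove macrophages, but the labels do not state it for these cells.

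VEGF ligands are secreted growth factors that act mainly on endothelial cells, where they drive the formation and leakiness of vessels. VEGFA binds the kinases encoded by Flt1 and Kdr, of which KDR carries most of the growth signal. FLT1 binds VEGFA tightly but signals weakly and is also made as a soluble decoy. PGF and VEGFB bind FLT1 alone, whereas VEGFC and VEGFD act mainly through FLT4, the receptor of lymphatic vessels. The neuropilins bind ligands beside the kinases and also bind class 3 semaphorins, guidance factors of axons and vessels. Fibroblasts are a tissue source of these ligands, and Vegfa is a classical target of the hypoxia-inducible factors (HIF).

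The sequences before the transcription starts of Vegfa and Vegfd are shown because these ligands had the highest rise and the deepest fall of the 9 genes. The Vegfa sequence lies on the minus strand of GRCm38 at chr17:46032378-46032627 and the Vegfd sequence on the plus strand at chrX:164373272-164373377, both from RefSeq on GRCm38.p6. Each is written 5′ to 3′ in the direction of the gene, and capitals mark the motif GGGCGG, bound by Sp1. The Vegfd sequence is cut where GENCODE M21 places the start of the gene.
Vegfa: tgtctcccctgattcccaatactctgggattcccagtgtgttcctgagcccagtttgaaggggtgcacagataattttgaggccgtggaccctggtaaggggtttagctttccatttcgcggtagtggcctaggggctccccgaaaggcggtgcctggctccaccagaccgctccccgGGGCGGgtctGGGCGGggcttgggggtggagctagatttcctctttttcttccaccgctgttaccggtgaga
Vegfd: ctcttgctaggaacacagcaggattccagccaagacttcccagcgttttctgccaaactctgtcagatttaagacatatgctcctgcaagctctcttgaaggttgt

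Over the 250 bases before the RefSeq start, GC made up 59.2% for Vegfa and 42.4% for Vegfd, beside a median of 52.4% over 32851 promoters. GGGCGG stood 2 times in the Vegfa window, from 72 to 67 and from 62 to 57 bases before the start, and 0 times in that of Vegfd. On either strand it was present in 32.7% of all promoter windows. Of the other motifs searched on both strands, ACGTG, the core bound by HIF, was present in 16.6% of all windows, TGANTCA, bound by AP-1, in 6.75%, and TGATGNAA, bound by ATF4 with C/EBP, in 3.45%. None of these 3 stood in the Vegfa window printed here or in that of Vegfd, and a RefSeq window for a further Vegfa start, inside the gene, held ACGTG 1 time. Bases more than 250 before a start were not searched, so these absences hold for the windows alone. GGGCGG stood 5 times in the window of Nrp2, 4 times in that of Vegfb and 3 times in that of Flt1, genes that did not pass 2-fold in any condition. The tables gave a promoter for all 9 genes, and a match in such a window is a description of its letters.

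The deposited values are TPM, transcript counts scaled so that each library sums to 1000000, so a value is a share of its library and is corrected for transcript length. TPM keeps no read count, so the sequencing depth is unknown. Each condition had 1 library, so replicate error is unknown, no test was possible and every difference is between single libraries. Changes are differences of log2(TPM + 1) from the control library, a scale that understates the change of genes with few transcripts, and a gene was called when it passed 2-fold. Calls were read among the 12909 genes whose average over the 7 libraries reached 2 TPM, which all 9 VEGF genes did. Oxidative stress had a median log2 change of -0.16 over these genes, osmotic stress one of -0.12, and the other 4 conditions lay between -0.09 and 0. Actb, the cytoskeletal actin gene often used as a reference, fell in ER stress (-1.24). In hypoxia 10 of 10 HIF targets rose, where 3.57% of all genes rose, and in ER stress 7 of 10 ATF4 targets, where 8.60% rose. The lists were chosen with earlier results of these data known, so these counts are no independent check of the treatments. Fibroblast markers (8 genes) summed to between 4200 and 8839 TPM, with the lowest sum in ER stress. There 3 of the 8, Col3a1, Lum and Pdgfrb, fell, where 11.0% of all genes fell.

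In control MEFs the coreceptors and Vegfa were the most abundant of the 9 transcripts. Nrp1 stood at 113 TPM, Vegfa at 78.6, Nrp2 at 67.4, Vegfb at 42.3, Vegfd at 27.6, Flt1 at 17.0, Vegfc at 7.43, Kdr at 3.64 and Pgf at 2.82 TPM. Neighbours in this order differed by between 1.17-fold (Vegfa over Nrp2) and 2.28-fold (Flt1 over Vegfc), and without replicates the order of close neighbours is uncertain. Over the 7 libraries, Pgf had the widest range of TPM, 7.74-fold, followed by Vegfd (6.42-fold), Vegfa (5.12-fold), Nrp1 (3.20-fold), Flt1 (2.38-fold) and Kdr (2.21-fold). The narrowest ranges were those of Vegfb (1.89-fold), Nrp2 (1.73-fold) and Vegfc (1.57-fold). The plot of TPM by library shows that Vegfa was the highest of the 9 genes in oxidative stress, ER stress, glutamine depletion and hypoxia, and that Nrp1 was the highest in the other 3 libraries.

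**Figure D1:**
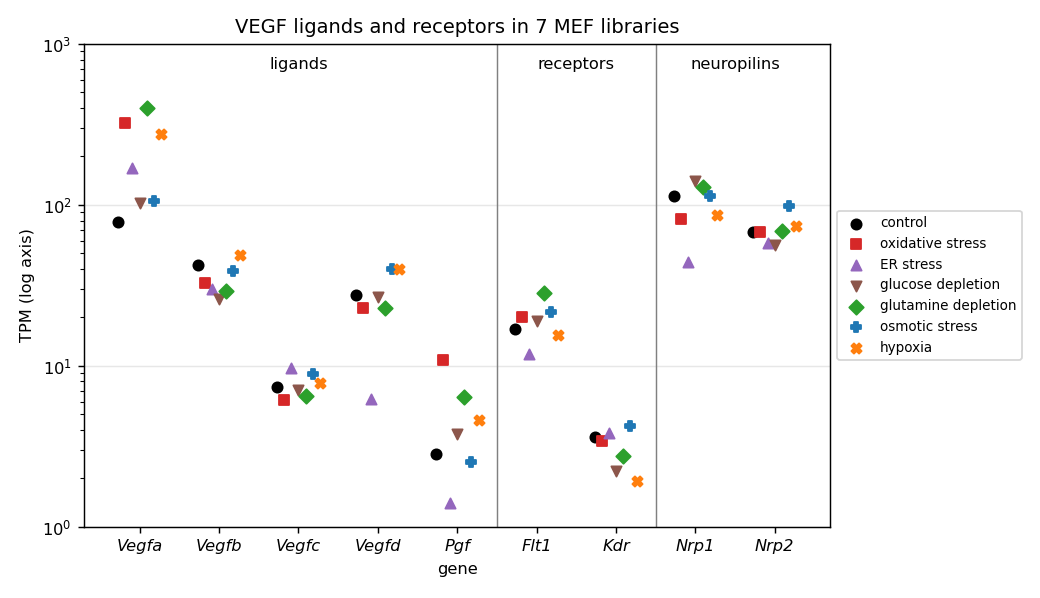
TPM (log axis) of the 9 VEGF genes in each of the 7 MEF libraries, 1 point per library, with ligands, receptors and neuropilins divided by vertical lines. The control is the lowest of the 7 points for Vegfa, at 78.6 TPM, and the ER stress library is far below the other points for Vegfd, at 6.20 TPM.

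Vegfa (ENSMUSG00000023951, minus strand, chr17:46016993-46032369), the main ligand of vessel growth, was at 78.6 TPM in the control, 322 in oxidative stress, 170 in ER stress, 103 in glucose depletion, 402 in glutamine depletion, 106 in osmotic stress and 275 in hypoxia. The control was the lowest library and glutamine depletion the highest. Vegfa rose in 4 of 6 conditions, by 5.12-fold in TPM in glutamine depletion, 4.10-fold in oxidative stress, 3.49-fold in hypoxia and 2.16-fold in ER stress. The log2 changes were 2.34, 2.02, 1.79 and 1.10. The values in osmotic stress (0.42) and glucose depletion (0.39) stayed within 2-fold. Among the 12909 genes, 126 had a higher change in glutamine depletion, 238 in oxidative stress, 238 in hypoxia and 922 in ER stress. The largest of these rises was thus in a nutrient depletion and not in hypoxia, a difference without a replicate check. Because the control was the lowest library, the comparison was repeated with the glucose depletion library as reference. The folds were then 3.90 in glutamine depletion, 3.12 in oxidative stress, 2.66 in hypoxia and 1.65 in ER stress, so that the ER stress value no longer passed 2-fold. Against the median of the 7 libraries, glutamine depletion alone passed it (1.24), with log2 values of 0.92 in oxidative stress, 0.69 in hypoxia and 0 in ER stress. That median is the ER stress value itself, so the 0 was fixed in advance. The other rises are then measured from a raised value, and this reference cannot show how firm they are. GENCODE M21 lists 13 transcripts of Vegfa, 8 of them protein-coding, and since the deposited TPM were summed over transcripts, isoforms of VEGFA that differ in matrix binding cannot be told apart.

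**Figure D2:**
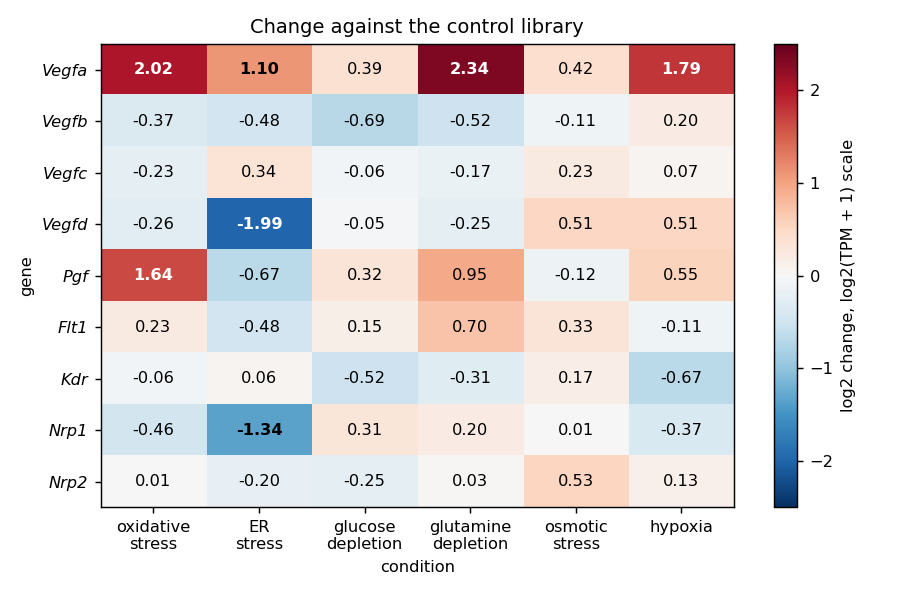
Log2 change of each VEGF gene (rows) against the control library in each condition (columns), on the log2(TPM + 1) scale, with values past 2-fold in bold. Vegfa is positive in all 6 conditions, and Vegfd and Nrp1 are the genes past 2-fold below the control, both in ER stress.

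Pgf (ENSMUSG00000004791, minus strand, chr12:85166635-85177790), the placental growth factor that binds FLT1, was at 2.82 TPM in the control, 10.9 in oxidative stress, 1.41 in ER stress, 3.78 in glucose depletion, 6.40 in glutamine depletion, 2.51 in osmotic stress and 4.61 in hypoxia. Oxidative stress was the highest library and ER stress the lowest. Pgf rose in oxidative stress, with a log2 change of 1.64 and 3.87-fold more TPM, where 287 of 12909 genes changed more. In glutamine depletion the log2 change of 0.95 lay just inside 2-fold, while the TPM were 2.27-fold those of the control, since Pgf is close to the pseudocount of 1 TPM. It was called there with a pseudocount of 0.1 TPM (1.15) or once changes were centred on the median gene (1.04). In ER stress the TPM were 0.500 of the control, and the log2 change was -0.67.

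Vegfd (ENSMUSG00000031380, plus strand, chrX:164373378-164402650), a ligand of the lymphatic receptor FLT4, was at 27.6 TPM in the control, 23.0 in oxidative stress, 6.20 in ER stress, 26.6 in glucose depletion, 23.0 in glutamine depletion, 39.8 in osmotic stress and 39.8 in hypoxia. The ER stress library stood apart below the other 6. Vegfd fell there by 1.99 on the log2 scale, to 0.224 of its control TPM, and 338 of 12909 genes changed further downward. In osmotic stress and hypoxia the log2 change was 0.51, within 2-fold. The ratio of Vegfa to Vegfd, taken within each library and so free of the library's scaling, was 2.84 in the control, 14.0 in oxidative stress, 27.4 in ER stress, 3.88 in glucose depletion, 17.5 in glutamine depletion, 2.66 in osmotic stress and 6.90 in hypoxia. In ER stress the higher ratio came with a change of both genes in opposite directions, and in oxidative stress and glutamine depletion mainly with the rise of Vegfa. Fibroblast markers were also lowest in ER stress, and their part in the fall of Vegfd was not tested. In bulk RNA, fewer cells of a type and less RNA per cell cannot be told apart.

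Vegfc (ENSMUSG00000031520, plus strand, chr8:54077606-54187096), the other ligand of FLT4, was at 7.43 TPM in the control, 6.18 in oxidative stress, 9.67 in ER stress, 7.06 in glucose depletion, 6.49 in glutamine depletion, 8.90 in osmotic stress and 7.86 in hypoxia. No library stood apart, and the log2 changes ran from -0.23 to 0.34. Vegfc was thus higher in the ER stress library than in any other, while Vegfd was lowest there, and the ratio of Vegfd to Vegfc was 0.641 in ER stress against 3.72 in the control and 3.55 to 5.07 in the other 5 libraries. Vegfb (ENSMUSG00000024962, minus strand, chr19:6982473-6987651), a ligand of FLT1 known for roles in heart and lipid metabolism, was at 42.3 TPM in the control, 32.5 in oxidative stress, 30.0 in ER stress, 25.9 in glucose depletion, 29.2 in glutamine depletion, 39.0 in osmotic stress and 48.8 in hypoxia. It was below the control in 5 of 6 conditions and above it in hypoxia, and no value passed 2-fold. Its lowest log2 change was -0.69, in glucose depletion, where 622 of 12909 genes changed further downward.

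Summed over the 5 ligands, VEGF RNA came to 159 TPM in the control, 395 in oxidative stress, 217 in ER stress, 167 in glucose depletion, 467 in glutamine depletion, 196 in osmotic stress and 376 in hypoxia. The sum was 2.94-fold the control in glutamine depletion, 2.49-fold in oxidative stress and 2.37-fold in hypoxia. Vegfa alone accounted for 49.5% of it in the control, 81.6% in oxidative stress, 78.2% in ER stress, 62.0% in glucose depletion, 86.1% in glutamine depletion, 54.0% in osmotic stress and 73.1% in hypoxia. Without Vegfa, the other 4 ligands summed to 80.2 TPM in the control, 47.3 in ER stress and 101 in hypoxia, which were the lowest and the highest of the 7 libraries. Hypoxia was therefore the condition in which the rise of Vegfa came with the highest sum of the other ligands, and ER stress that in which it came with the lowest.

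**Figure D3:**
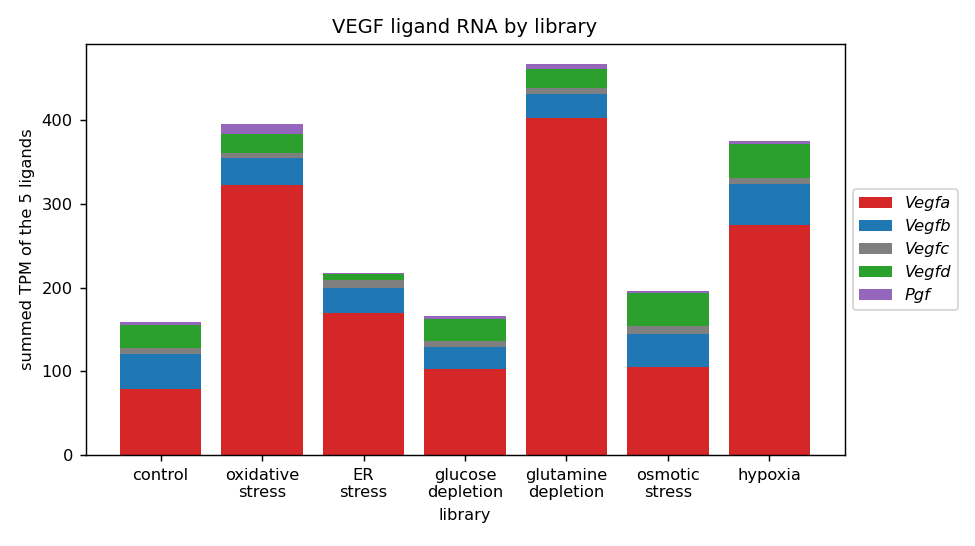
Summed TPM of the 5 VEGF ligands in each library, stacked by ligand on an axis from 0. The height ranges from 159 TPM in the control to 467 TPM in glutamine depletion, and most of the added height is Vegfa.

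Flt1 and Kdr are receptors of endothelial cells, and both were measured at low to moderate levels. Flt1 (ENSMUSG00000029648, minus strand, chr5:147561604-147726011) was at 17.0 TPM in the control, 20.1 in oxidative stress, 11.9 in ER stress, 18.9 in glucose depletion, 28.3 in glutamine depletion, 21.6 in osmotic stress and 15.6 in hypoxia. Glutamine depletion was the highest library and ER stress the lowest, and the log2 changes, from -0.48 to 0.70, did not pass 2-fold. Kdr (ENSMUSG00000062960, minus strand, chr5:75932827-75978458) was at 3.64 TPM in the control, 3.44 in oxidative stress, 3.84 in ER stress, 2.23 in glucose depletion, 2.75 in glutamine depletion, 4.23 in osmotic stress and 1.92 in hypoxia. Its lowest value was in hypoxia, with a log2 change of -0.67, and it too stayed within 2-fold throughout. Flt1 exceeded Kdr in each library, by 3.09-fold in ER stress to 10.3-fold in glutamine depletion. Membrane-bound and soluble FLT1 cannot be told apart in summed TPM, and GENCODE M21 lists 6 transcripts of this gene.

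Markers of endothelial cells were near 0 in these MEFs, apart from Erg, which encodes an endothelial transcription factor. Cldn5 was at 0 in all 7 libraries, Cdh5 reached at most 0.288 TPM, Pecam1 at most 1.02 TPM and Tek at most 1.94 TPM. The 8 endothelial markers summed to between 6.01 and 23.7 TPM, of which Erg made up most, with 16.2 TPM in control MEFs against 2.22 under ER stress (log2 change -2.42). The lymphatic markers Lyve1 and Prox1 summed to at most 0.526 TPM. Flt1, at 11.9 to 28.3 TPM, was thus above Pecam1, Cdh5 and Cldn5 in each library. Flt4, the receptor of VEGFC and VEGFD, was at 6.08 TPM in the control and between 3.76 and 6.42 TPM in the conditions, and did not pass 2-fold. Markers of macrophages (6 genes) summed to between 6.13 and 12.7 TPM, most of it Cd68, and C1qa was at 0 in all 7 libraries. Among 4 mural cell markers only Cspg4 passed the expression filter. It was at 72.2 TPM in the control and highest in glutamine depletion (139 TPM, log2 change 0.94) and oxidative stress (117 TPM, 0.69). Vegfa was also highest in these libraries. In hypoxia, where Vegfa rose as well, Cspg4 was at its lowest (54.3 TPM, -0.40). In ER stress, where Vegfa also rose, Cspg4 was near the control (-0.05). The part of Cspg4 in the Vegfa values was not tested.

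The neuropilins differed in ER stress. Nrp1 (ENSMUSG00000025810, plus strand, chr8:128358604-128503363), the coreceptor of VEGFA, was at 113 TPM in the control, 81.9 in oxidative stress, 44.0 in ER stress, 140 in glucose depletion, 130 in glutamine depletion, 114 in osmotic stress and 87.0 in hypoxia. It fell in ER stress by 1.34 on the log2 scale, to 0.389 of the control TPM, and its other log2 changes lay between -0.46 and 0.31. Nrp2 (ENSMUSG00000025969, plus strand, chr1:62703285-62818695), which also serves VEGFC, was at 67.4 TPM in the control, 67.9 in oxidative stress, 58.4 in ER stress, 56.5 in glucose depletion, 69.1 in glutamine depletion, 98.0 in osmotic stress and 73.7 in hypoxia. Its highest library was osmotic stress, with a log2 change of 0.53 where the median of all genes was -0.12, and it did not pass 2-fold anywhere. The ratio of Nrp1 to Nrp2 was 1.68 in the control and 0.753 in ER stress, the single library in which Nrp2 exceeded Nrp1, and between 1.16 and 2.48 in the other 5. Gm29083, an antisense gene that overlaps Nrp2, reached at most 0.367 TPM. Mir1903, a microRNA gene, lies within Nrp1 on the same strand.

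Counted by condition, 2 of 9 VEGF genes rose and 0 fell in oxidative stress, where 3.94% of all genes rose and 4.85% fell. In ER stress 1 rose and 2 fell, where 8.60% rose and 11.0% fell. In glutamine depletion 1 rose and 0 fell, where 3.21% rose and 3.21% fell, and in hypoxia 1 rose and 0 fell, where 3.57% rose and 2.64% fell. No VEGF gene passed 2-fold in glucose depletion, where 1.83% of genes rose and 2.41% fell, or in osmotic stress, where 3.08% rose and 8.76% fell. In all, 7 of 54 values passed 2-fold, 5 upward and 2 downward, and 4 of these were those of Vegfa. The 5 genes Vegfb, Vegfc, Flt1, Kdr and Nrp2 passed it in no condition. The median log2 change of the 9 genes was -0.06 in oxidative stress, -0.48 in ER stress, -0.05 in glucose depletion, 0.03 in glutamine depletion, 0.23 in osmotic stress and 0.13 in hypoxia, beside medians of all genes of -0.16, 0, -0.02, -0.09, -0.12 and -0.05. The family did not move as a unit, and 77.8% of its values lay within 1.5-fold of the control, as did 77.8% of the values of all genes.

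**Figure D4:**
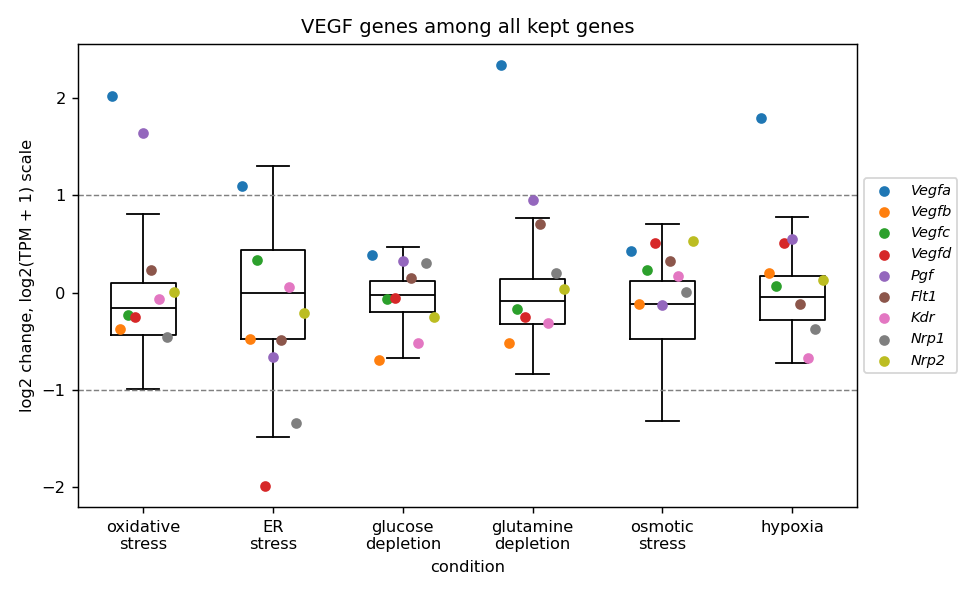
Log2 changes of all 12909 kept genes against the control in each condition (boxes are quartiles with the median, whiskers the percentiles 5 and 95) with the 9 VEGF genes as points, dashed lines marking 2-fold. Vegfa lies above the upper whisker in oxidative stress, glutamine depletion and hypoxia but inside it in ER stress, glucose depletion and osmotic stress, and Vegfd lies below the lower whisker in ER stress.

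Because Vegfa is a target of HIF and of the amino acid response factor ATF4, its values were set beside lists of targets of each. These lists were chosen with earlier results of these data known. In hypoxia the 10 HIF targets had a median log2 change of 3.33 and ran from 1.78 (Ldha) to 4.85 (Bnip3), so that Vegfa, at 1.79, stood near the lower end of the list. In glutamine depletion 0 of the 10 HIF targets rose and 1 fell, where 3.21% of all genes rose and 3.21% fell. The targets had a median of -0.13 and a highest value of 0.86 (Slc2a1), beside 2.34 for Vegfa. In oxidative stress 2 of 10 HIF targets rose, Slc2a1 (1.41) and Ndrg1 (1.21), where 3.94% of all genes rose. The median of the targets was 0.02, beside 2.02 for Vegfa. The rise of Vegfa in these 2 conditions was larger than that of each HIF target on the list. Oxidative stress lasted 3 hours and hypoxia 10 hours, and the part of HIF in these Vegfa values was not tested. In ER stress, where Vegfa was at 1.10, 2 of 10 HIF targets rose, Ndrg1 (2.28) and Ero1l (1.94), both above Vegfa. Another 2, Car9 (-1.93) and Ankrd37 (-1.38), fell there, where 8.60% of all genes rose and 11.0% fell.

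The median of the ATF4 targets was highest in ER stress, at 1.80, and was 0.47 in hypoxia, 0.44 in glutamine depletion and 0.35 in oxidative stress. In glutamine depletion, where 3.21% of all genes rose, 2 of 10 rose, Atf3 (2.47) and Chac1 (1.69). In oxidative stress, where 3.94% of all genes rose, 3 of 10 rose, Atf3 (4.47), Slc7a11 (2.22) and Chac1 (1.38). In hypoxia, where 3.57% of all genes rose, 3 of 10 rose, Vldlr (2.39), Ddit4 (1.77) and Trib3 (1.18). Asns (-0.09), Chac1 (-0.05), Psat1 (-0.05) and Sesn2 (0.05) were near the control there, and Slc7a11 (0.32), Ddit3 (0.61) and Atf3 (0.79) lay between. A gene can be a target of both factors, as Vegfa is, and the factor behind each rise was not tested. Vegfa was at 1.10 in ER stress, 1.79 in hypoxia, 2.34 in glutamine depletion and 2.02 in oxidative stress. The part of ATF4 in these rises of Vegfa was not tested. In osmotic stress 2 of these targets rose and 4 fell, where 3.08% of all genes rose and 8.76% fell. The lowest target there was Chac1 (-2.36), and Vegfa was at 0.42. All values are taken against the same control library, so a chance value of that library enters each of them.

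**Figure D5:**
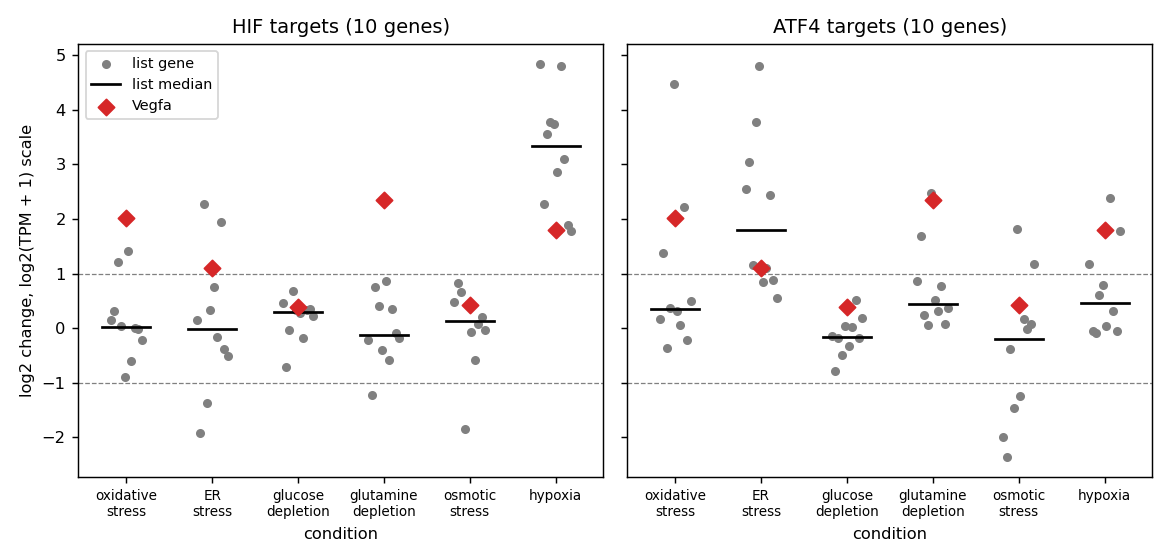
Log2 change against the control of 10 HIF targets (left) and 10 ATF4 targets (right) in each condition, 1 grey point per gene with a black bar at the list median and a red diamond for Vegfa. Vegfa lies above all 10 HIF targets in oxidative stress and glutamine depletion and near the bottom of them in hypoxia.

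Of 11 regulators of Vegfa transcription and mRNA, 10 passed the expression filter. Hif1a, which encodes the oxygen-regulated HIF subunit, had log2 changes between -0.23 and 0.62 and is known to be controlled mainly through its protein. Atf4 rose in ER stress (1.48), where 8.60% of all genes rose. Zfp36, which encodes a protein that destabilises mRNAs with AU-rich elements, rose in oxidative stress (1.38), where 3.94% of all genes rose. Zfp36l1, a relative of Zfp36, fell in ER stress (-1.04), where 11.0% of all genes fell. Vhl, which marks HIF for degradation, fell in osmotic stress (-1.17), where 8.76% of all genes fell. In glucose depletion, glutamine depletion and hypoxia 0 of the 10 passed 2-fold. Of all genes, 1.83%, 3.21% and 3.57% rose in these conditions and 2.41%, 3.21% and 2.64% fell. Zfp36 in glutamine depletion (0.99, from 16.3 to 33.4 TPM) and Vhl in hypoxia (0.99, from 24.9 to 50.4 TPM) lay just inside 2-fold.

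Of 11 measured partners of the receptors and the neuropilins, 3 fell and 0 rose in ER stress, where 11.0% of all genes fell. These were Plxnd1 (-1.86) and Plxna2 (-1.47), plexins that signal for semaphorins beside the neuropilins, and the integrin subunit Itgav (-1.23). In glutamine depletion, where 3.21% of all genes rose, 2 of 11 rose, the phosphatase gene Ptprj (1.56) and the integrin subunit Itgb3 (1.45), and in the other 4 conditions none passed 2-fold. Of the class 3 semaphorins, 6 of 7 passed the filter, and 2 fell in ER stress, Sema3f (-2.47, from 82.9 to 14.1 TPM) and Sema3b (-1.34), with none past 2-fold in the other 5 conditions. In those 5, between 1.83% and 3.94% of all genes rose and between 2.41% and 8.76% fell. Sema3f encodes a ligand of NRP2, and Nrp2 was at -0.20 in ER stress. Nrp1, 2 plexins and 2 semaphorins were past 2-fold below the control there. Plxna1 (-0.38), Plxna3 (0.20) and the other semaphorins stayed within 2-fold. The background there was high, with 11.0% of all genes down, and the semaphorin median was -0.35 and that of the receptor partners -0.51, beside 0 over all genes.

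Of 10 measured genes that process VEGF ligands or bind them in the matrix, 6 fell and 0 rose in ER stress, where 11.0% of all genes fell, with a median log2 change of -1.32. The other 4, Ctgf (-0.91), Sparc (-0.84), Thbs2 (-0.82) and Adamts1 (-0.19), did not pass 2-fold. Fibroblast markers had a median of -0.87 in the same library, and their part in these values was not tested. The lowest was Plau (-3.63), the urokinase protease that can release VEGFA from the matrix, and Ccbe1 (-1.48), needed to process VEGFC, was among them. In glutamine depletion Ctgf (1.49), a matrix protein that binds VEGFA, and Plau (1.29) rose and Adamts1 (-1.43), a matrix protease that can trap VEGFA, fell. There 3.21% of all genes rose and 3.21% fell. Adamts1 also fell in oxidative stress (-1.65) and glucose depletion (-1.07), where 4.85% and 2.41% of all genes fell. In osmotic stress Plat rose (1.13), where 3.08% of all genes rose. In hypoxia 0 of the 10 passed 2-fold, where 3.57% of all genes rose and 2.64% fell.

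Other secreted angiogenic factors (8 genes) divided by condition. In hypoxia, where 3.57% of all genes rose, Apln, which encodes the vessel peptide apelin, rose from 13.2 to 80.7 TPM (log2 change 2.53). Adm rose there by 1.02, both with Vegfa. In glutamine depletion, where 3.21% of all genes rose, Fgf2 (1.73), Edn1 (1.22) and Angptl4 (1.02) rose. In oxidative stress, where 3.94% of all genes rose and 4.85% fell, Fgf2 rose (1.20) and Angptl4 fell (-1.12). In ER stress 4 of 8 fell, Angpt1 (-1.70), Adm (-1.57), Angpt2 (-1.55) and Apln (-1.06), and 0 rose, where 11.0% of all genes fell and 8.60% rose, while Vegfa was at 1.10. In glucose depletion Angptl4 rose (1.10), where 1.83% of all genes rose. In osmotic stress 0 of 8 passed 2-fold, where 3.08% of all genes rose and 8.76% fell.

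Genes with the most similar pattern were sought for the 5 members whose log2(TPM + 1) ranged over at least 1 unit, among 6756 genes with the same range, by the root mean square difference of values centred on each gene's mean over the 7 libraries. For Vegfa the nearest were Glis1 (0.34 log2 units), Homer1 (0.37), Creb5 (0.38), Gm14410 (0.48) and Soat1 (0.49). Creb5, at 1.56 TPM in the control, rose in oxidative stress (1.80) and glutamine depletion (1.76), and was at 0.96 in ER stress and 0.82 in hypoxia. The nearest gene to Vegfa was farther from it than the nearest genes of the other 4 members were from theirs. For Vegfd the nearest were Aspn (0.13), Colec12 (0.19), Pmp22 (0.20), Capn5 (0.20) and Tmem119 (0.20). Aspn, which encodes the matrix proteoglycan asporin, had log2 changes of -1.95 in ER stress, 0.64 in osmotic stress and 0.58 in hypoxia, beside -1.99, 0.51 and 0.51 for Vegfd. For Pgf they were Slc40a1 (0.21), Msx2 (0.25), B4galt5 (0.25), Prkab2 (0.28) and Sox9 (0.30). For Flt1 they were Pde3a (0.09), Gpd2 (0.10), the mitochondrial tRNA gene mt-Tp (0.11), Hs6st1 (0.12) and Kcnk3 (0.12), and for Nrp1 Anxa8 (0.10), Fhod1 (0.13), Pls3 (0.14), Dpy19l1 (0.14) and Slc43a2 (0.14). With 7 libraries and 6756 genes compared, near patterns are a description.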

How the data were processed

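Sequencing libraries were made with a stranded mRNA protocol. The authors aligned reads with Kallisto (0.43.1 in the submitters' processing notes) at default settings to the GRCm38 cDNA transcripts of Ensembl release 90, and deposited gene-level TPM, the sum of each gene's transcripts. Nothing in the sources used here says that strand was used in counting. Each TPM column matched 1 sample by its title.

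From the TPM, log2(TPM + 1) and its difference from the control were computed, with no test, since each group holds 1 library. Genes averaging 2 TPM or more were kept, and the 2-fold rule is that of the study's methods. VEGF genes and gene lists were chosen with earlier results of these data known. In each list, genes past 2-fold and those a sentence on a VEGF gene needs were named; pattern neighbours were the 5 nearest per member. The call rule was tested on simulated data with an assumed noise and with changes planted well past 2-fold in genes of higher TPM. It therefore does not bear on values near 2-fold or on genes of low TPM. Locations came from GENCODE M21 and promoters from RefSeq (GRCm38.p6), matched by symbol. Proteins were not used here. Computation used pandas 2.3.3 and numpy 2.4.6 under Python 3.11.15, and plots were drawn with matplotlib 3.10.9.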

Additional observations from a re-analysis of the deposited data

How the results depend on the processing

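Counts of VEGF genes past the threshold were recomputed under 9 other settings and 1 chosen after seeing the data. With a 1.5-fold threshold, 3 rose in glutamine depletion, where 7.47% of all genes rose. At that threshold 3 fell in ER stress (21.3% of all genes fell) and 1 fell in each of glucose depletion (6.23%) and hypoxia (8.10%). With 3-fold, 0 rose and 1 fell in ER stress, where 3.39% of all genes rose and 4.31% fell. With a mean of at least 10 TPM, which leaves 6 of the 9 genes, 1 rose in oxidative stress, since Pgf was removed. The share of all genes left that rose there was 2.63%. With a pseudocount of 0.1 TPM, or after centring on the median of all genes, 2 rose in glutamine depletion, Vegfa and Pgf. The shares of all genes that rose there were 3.87% with the pseudocount and 3.69% after centring. With the median of the 7 libraries as reference, 1 rose in oxidative stress, 0 in ER stress and 0 in hypoxia, because Vegfa then had log2 changes of 0.92, 0 and 0.69. For Vegfa this median is its raised ER stress value, so the 0 was fixed by the choice of reference. The shares of all genes that rose were then 2.97%, 7.78% and 3.07%. With the glucose depletion library as reference, chosen after seeing the data, 0 rose in ER stress, where Vegfa was at 0.71 and 9.02% of all genes rose. A pseudocount of 5 TPM, no filter, and removal of mitochondrially encoded genes left each count as it was, and no value past 2-fold changed sign under the alternatives run. The control library enters all comparisons and no replicate shows its error. No paired analysis was possible because each group holds 1 library.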

Other observations

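Mir1903, the microRNA gene within Nrp1, is listed at 0 TPM in the control and in oxidative stress, 15.5 in ER stress, 28.5 in glucose depletion, 26.4 in glutamine depletion, 43.0 in osmotic stress and 12.7 in hypoxia. These values did not follow those of Nrp1, which was highest in glucose depletion and lowest in ER stress. TPM is corrected for transcript length and keeps no read count, so the number of reads behind the Mir1903 values is unknown. Tek, the angiopoietin receptor gene on the endothelial list, was at 1.92 TPM in the control and 1.94 in osmotic stress, 1.53 in hypoxia, 0.970 in glutamine depletion, 0.576 in glucose depletion, 0.351 in oxidative stress and 0.275 in ER stress, all below the expression filter.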
